A study of Homo sapiens with 3 samples.

Results

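UV light puts bulky photoproducts into DNA, which stall RNA polymerase II and set off the DNA damage response. In cultured cells the first wave of that response includes kinase signalling that switches on immediate early genes, stabilisation of the transcription factor p53, nucleotide excision repair, and a transient loss of transcription and of mRNA 3ʹ end processing. Because the RNA measured here came from nuclei, it holds transcripts soon after they were made, together with mature mRNA still waiting for export.

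The comparison described here is that of RKO cells 0.5 h after UV irradiation with RKO cells at 0 h, for which the treatment is given as baseline. RKO is an established, poorly differentiated human colon carcinoma line, and both groups are the same line in the same medium, with nuclear RNA of 1 library each and no further agent or allele. The labels give no UV dose. The series holds 3 libraries, of which the third, at 2 h after UV, is given only as a side value.

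The libraries were made by 3ʹREADS, a method that sequences the stretch just upstream of the poly(A) tail, so that each read marks 1 poly(A) site (pA) and a longer gene does not give more reads. Reads were recovered from the RPM values of the table (reads scaled to the library total) and summed over the pAs of a gene. Of 9431 genes, 5100 had at least 10 reads over both libraries and were tested, and 4331 were under that minimum. The 0.5 h library held 501838 reads, where 1 read is 1.99 RPM, and the 0 h library 433261 reads, where 1 read is 2.31 RPM. A gene was called higher or lower at 0.5 h when its share of reads differed by two-sided Fisher's exact test (Benjamini-Hochberg adjusted p under 0.05) and its RPM differed by at least 2-fold. A library with 0 reads entered a ratio at 3 reads, so that such a ratio is a bound for that library only and leaves out the counting error of the other. Intervals are exact 95% intervals of the RPM ratio of 0.5 h over 0 h. With 1 library per time point, these tests and intervals cover the counting of reads in a pair of libraries and carry no spread between cultures.

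The defining markers of the line were sparse. EPCAM had 6 reads at 0.5 h and 7 at 0 h, KRT8 had 4 reads in both libraries, and 6 of 10 epithelial markers are not listed in the table. The fibroblast marker ACTA2 had 0 reads in both libraries, and of 12 leukocyte markers only CD68 is listed, with 2589 reads at 0.5 h and 2037 at 0 h. ACTB, which encodes beta-actin, had 18 reads at 0.5 h and 23 at 0 h, while SENP3, which encodes a SUMO protease, had 12707 and 10561 reads. All comparisons below are made within a gene, between the libraries.

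By 0.5 h more genes were called lower than higher. Of the 5100 genes, 398 (7.8%) were called lower and 224 (4.39%) higher at 0.5 h, and 72.1% stayed within 2-fold. The median gene had a log2 ratio of -0.10, with the 10th percentile at -1.35 and the 90th at 1.11. The shift of the median went with the most abundant genes taking more of the library: the top 10 genes held 19% of the reads at 0.5 h and 17.1% at 0 h, and the top 100 held 50.4% and 46.5%. When the 20 most abundant genes were left out of the totals, the median log2 ratio was -0.01, with 265 genes called higher and 334 lower.

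Fewer sites were seen at 0.5 h in spite of the larger library. Reads fell on 15564 pAs of 7707 genes at 0.5 h, against 16933 pAs of 8002 genes at 0 h. Thinned to the 433093 reads that the table holds at 0 h, the 0.5 h library covered 14899 pAs of 7594 genes. The difference lay in sites with a single read, of which there were 4135 at 0.5 h and 5927 at 0 h, whereas sites with at least 10 reads numbered 3803 at 0.5 h and 3689 at 0 h.

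**Figure D1:**
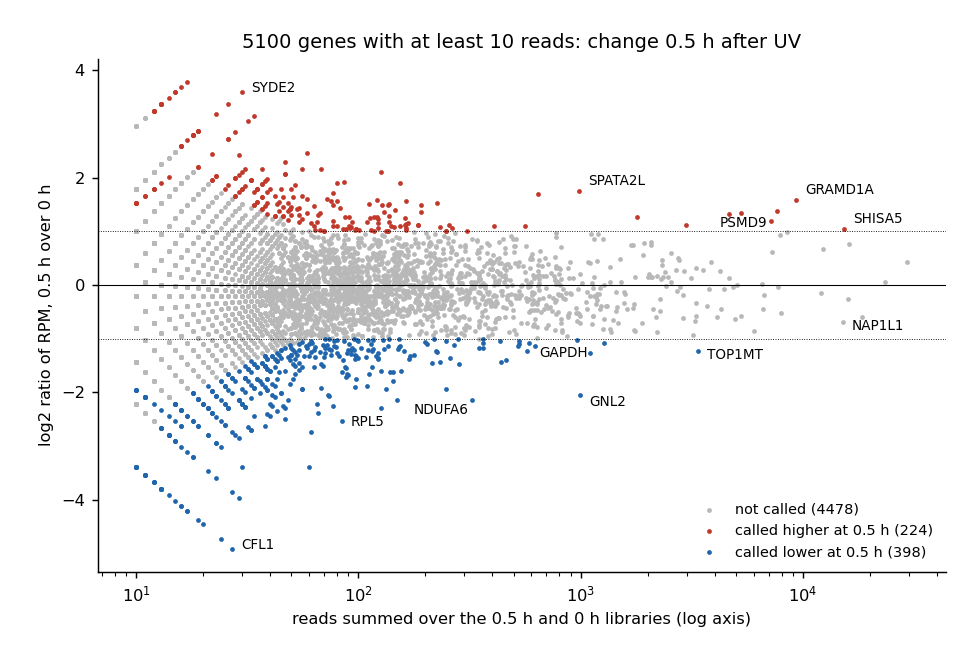
Log2 ratio of RPM (0.5 h over 0 h, y axis) against the reads of a gene summed over both libraries (x axis, log scale) for the 5100 genes tested, with the 224 genes called higher in red and the 398 called lower in blue. Dotted lines mark 2-fold. Genes with few reads spread widely, and above 1000 reads 8 genes were called higher and 3 lower.

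More genes were called lower than higher at all but the highest read numbers. With 10 to 19 reads over both libraries, 101 genes were called lower and 48 higher, and with 20 to 49 reads 147 and 71. With 50 to under 200 reads 119 were called lower and 86 higher, and with 200 to under 1000 reads 28 and 11. Among the 133 genes with 1000 reads or more, 3 were called lower and 8 higher. The median log2 ratio lay between -0.12 and -0.04 in all 5 groups. Of the 398 genes called lower, 106 had 3 reads or fewer at 0.5 h, and of the 224 called higher, 57 had 3 reads or fewer at 0 h.

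The abundant genes called higher were led by GRAMD1A, whose reads lay nearly all at 1 site. GRAMD1A, which encodes an ER protein that carries cholesterol from the plasma membrane, had 7227 reads at 0.5 h and 2077 at 0 h, a ratio of 3.0 (2.86 to 3.16). Of these, 7208 and 2049 reads lay at chr19:35517373 (hg19, plus strand) in its 3ʹ-most exon. Its weaker site at chr19:35518295 moved the other way, with 12 reads at 0.5 h and 27 at 0 h. The rise of GRAMD1A was thus a rise of its main site.

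Proteasome and endomembrane genes were among the other abundant risers. PSMD9, a chaperone of proteasome assembly, had 5753 reads at 0.5 h and 1903 at 0 h, a ratio of 2.61 (2.48 to 2.75). PSMA7, a subunit of the 20S proteasome, had 5211 and 1978 reads, a ratio of 2.27 (2.16 to 2.40). TCIRG1, a subunit of the proton pump of lysosomes, had 3919 reads at 0.5 h and 1337 at 0 h, a ratio of 2.53 (2.38 to 2.69). For each of these genes the interval lies wholly above 2-fold. MAP4K4, a kinase upstream of the stress kinase JNK, had 3474 reads at 0.5 h and 1192 at 0 h, a ratio of 2.52 (2.36 to 2.69). SHISA5, first described as the p53-induced ER protein Scotin, had 10739 reads at 0.5 h and 4480 at 0 h, a ratio of 2.07 (2.00 to 2.14).

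The genes with the highest lower bound of the interval were a mixed group in function. SPATA2L had 784 reads at 0.5 h and 200 at 0 h, a ratio of 3.38 (2.89 to 3.97). GYS1, glycogen synthase of muscle and most other tissues, had 508 and 136 reads, a ratio of 3.22 (2.66 to 3.93). COG2, a subunit of the Golgi tethering complex, had 125 reads at 0.5 h and 29 at 0 h, a ratio of 3.72 (2.47 to 5.78). These genes have enough reads in both libraries for the size of the change to be read within about 2-fold. The zinc finger genes ZNF410, which encodes an activator of the chromatin remodeler gene CHD4, and PRDM15 also rose, with 105 reads at 0.5 h and 21 at 0 h for ZNF410 and 51 and 8 for PRDM15.

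Several risers started from next to nothing, and for them the direction is firmer than the size. SYDE2, a GTPase-activating protein, had 28 reads at 0.5 h and 2 at 0 h, a ratio of 12.1 (3.05 to 105). TERF2IP, which encodes the telomere protein RAP1, had 31 and 3 reads, and ATPAF2, an assembly factor of ATP synthase, 29 and 3. PPAPDC2, a lipid phosphatase, had 24 reads at 0.5 h and 2 at 0 h. The widths of these intervals follow from the 2 or 3 reads at 0 h.

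Among genes with no read at 0 h, 14 were called higher. DCLK2, a doublecortin-like kinase, had 14 reads at 0.5 h and was at least 4.03-fold higher with 3 reads set for the 0 h library, while the exact interval, which also covers the counting error of the 14 reads, starts at 2.86. PABPC4, a cytoplasmic poly(A)-binding protein, had 13 reads and was at least 3.74-fold higher. ARMC7, FAM89A and the semaphorin gene SEMA4G had 12 reads each and were at least 3.45-fold higher. In DCLK2, 11 of the 14 reads were at an intronic site, chr4:151058024, and in ARMC7 7 of 12 were at the intronic site chr17:73110925. At 2 h, ARMC7 and FAM89A were back to 1 read each, whereas PABPC4 had 19.

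**Figure D2:**
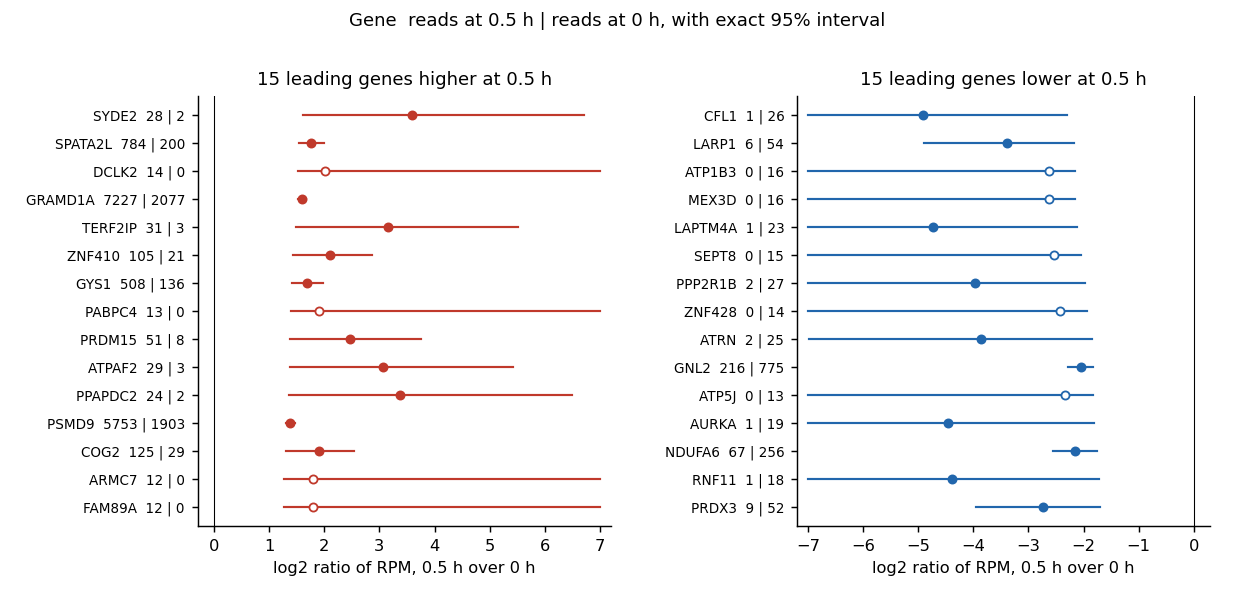
Log2 ratio of RPM (0.5 h over 0 h, x axis) with its exact 95% interval for the 15 genes with the highest lower bound (left) and the 15 with the lowest upper bound (right), each with its reads at 0.5 h and then at 0 h. Open circles are bounds for genes with 0 reads in a library, and intervals are cut off at the axis end. Abundant genes such as GRAMD1A and GNL2 have short bars, whereas CFL1 and SYDE2 rest on 1 and 2 reads in their lower library.

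The genes lower at 0.5 h were led by a nucleolar and a respiratory gene among those with many reads. GNL2, a nucleolar GTPase that acts in assembly of the large ribosomal subunit, had 216 reads at 0.5 h and 775 at 0 h, a ratio of 0.241 (0.206 to 0.280), all of them at chr1:38032421. NDUFA6, a subunit of respiratory complex I, had 67 and 256 reads, a ratio of 0.226 (0.170 to 0.297). TOP1MT, the mitochondrial DNA topoisomerase I, had 1116 reads at 0.5 h and 2256 at 0 h, a ratio of 0.427 (0.397 to 0.459). Both GNL2 and TOP1MT were lower still in the 2 h library, with 80 and 281 reads.

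Genes of metabolism and the secretory route followed. FH, the fumarase of the citric acid cycle, had 24 reads at 0.5 h and 102 at 0 h, a ratio of 0.203 (0.124 to 0.319). PRDX3, the peroxiredoxin of mitochondria, had 9 and 52 reads, a ratio of 0.149 (0.0647 to 0.306). KDELR1, the receptor that returns proteins to the ER, had 31 reads at 0.5 h and 118 at 0 h, a ratio of 0.227 (0.148 to 0.339). In both PRDX3 and KDELR1 the loss fell on 1 of a pair of sites in the 3ʹ-most exon. KDELR1 had 20 reads at 0.5 h and 110 at 0 h at its distal site, chr19:48885827 (minus strand), and 10 and 8 reads at the proximal one, chr19:48886310. PRDX3 had 4 reads at 0.5 h and 47 at 0 h at the distal site chr10:120927232 (minus strand), and 5 and 1 at the proximal site chr10:120927562.

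The lowest ratios belonged to genes with few reads. CFL1, which encodes the actin-severing protein cofilin, had 1 read at 0.5 h and 26 at 0 h, a ratio of 0.0332 (0.00081 to 0.202). It had 29 reads again at 2 h. LARP1, which binds the 5ʹ ends of mRNAs for ribosomal proteins, had 6 and 54 reads, a ratio of 0.0959 (0.0337 to 0.223). LAPTM4A, a lysosomal membrane protein, had 1 read at 0.5 h and 23 at 0 h, PPP2R1B, a scaffold subunit of phosphatase PP2A, had 2 and 27, and ATRN, which encodes attractin, had 2 and 25. AURKA, the mitotic kinase Aurora A, had 1 read at 0.5 h and 19 at 0 h, and RNF11, a RING finger protein, had 1 and 18.

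Among genes with no read at 0.5 h, 20 were called lower. ATP1B3, a subunit of the sodium pump, and MEX3D, an RNA-binding protein, had 16 reads each at 0 h and were at least 6.18-fold lower by the same 3-read rule, with the exact interval of the ratio ending at 0.224. The septin gene SEPT8 had 15 reads at 0 h and was at least 5.79-fold lower, ZNF428 had 14 and was at least 5.41-fold lower, and ATP5J, coupling factor 6 of ATP synthase, had 13 and was at least 5.02-fold lower. All 5 genes had reads again at 2 h, from 2 in SEPT8 to 9 in ZNF428. SEPT8 and PPP2R1B were seen through intronic sites, with 12 of the 15 reads of SEPT8 at chr5:132091696 and 18 of the 27 reads of PPP2R1B at 0 h at chr11:111609899.

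Most called genes had a single well-read site. Of the 224 genes called higher, 204 had a pA with at least 10 reads over both libraries, and 37 had more than 1 such pA, of which 27 had all of them higher. Of the 398 genes called lower, 349 had such a pA and 60 had more than 1, of which 44 had all of them lower. As the calls were made on the sum of these sites, these counts describe the calls and do not test them.

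Immediate early genes, whose transcription is switched on by kinase signalling without new protein synthesis, showed no called change at 0.5 h. Of 11 genes for AP-1 subunits in the table, 5 could be tested and 0 were called, beside 4.39% higher and 7.8% lower of all genes. So few genes cannot set 0 calls apart from those shares. FOS and ATF3 had 0 reads in both libraries, a count that allows up to 5.98 RPM at 0.5 h and 6.92 RPM at 0 h. JUN had 35 reads at 0.5 h and 49 at 0 h, a ratio of 0.617 (0.388 to 0.971), and JUND 247 and 159 reads, a ratio of 1.34 (1.09 to 1.65). JUN and JUND thus lay on opposite sides of 1, and neither reached 2-fold. Within JUN, the sites differed: chr1:59246992 had 1 read at 0.5 h and 17 at 0 h, whereas chr1:59247055 had 23 and 13.

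Of 34 other immediate early genes in the table, 14 could be tested, 8 with a ratio above 1, and their median log2 ratio was 0.47 beside -0.10 for all genes tested. At the level of single genes 0 of the 14 were called, beside 4.39% higher and 7.8% lower of all genes, again too few genes to tell these apart. CYR61, a matricellular growth signal, had 124 reads at 0.5 h and 62 at 0 h, a ratio of 1.73 (1.26 to 2.38), short of 2-fold (Fisher's exact test, adjusted p = 0.0039). LIF, a cytokine, had 30 and 11 reads, a ratio of 2.35 (1.15 to 5.21), with an adjusted p of 0.059 by the exact test. EGR1, the zinc finger factor often used to follow this response, had 21 reads at 0.5 h and 9 at 0 h, a ratio of 2.01 (0.884 to 5.0). ID1 had 74 and 42 reads, MYC 10 and 11, and MCL1 72 and 70. LIF alone of the list was called when the median log2 ratio was set to 0, and also with a minimum of 30 reads.

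Genes that feed back on MAP kinases were not called either. Of 10 tested, 7 had a ratio below 1, beside 54.8% of all genes. The 0 calls among them stand beside 4.39% higher and 7.8% lower of all genes. DUSP6, the phosphatase of ERK, had 51 reads at 0.5 h and 78 at 0 h, a ratio of 0.564 (0.389 to 0.814), and SPRY4 had 101 and 125 reads, a ratio of 0.698 (0.531 to 0.914). DUSP1 had 9 reads at 0.5 h and 0 at 0 h, under the minimum for a test. In the NF-κB list, 2 of 13 tested genes were called, both lower (15.4%, beside 7.8% of all genes): NFKBIB, an inhibitor of NF-κB, had 8 reads at 0.5 h and 26 at 0 h, and CD83, a membrane protein of activated immune cells, had 11 and 27.

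Targets of p53 were called in both directions. Of 33 listed in the table, 20 were tested, 3 were called higher and 3 lower (15% each, beside 4.39% and 7.8% of all genes), and the median log2 ratio was -0.13. BAX, which permeabilises mitochondria in apoptosis, had 115 reads at 0.5 h and 49 at 0 h, a ratio of 2.03 (1.44 to 2.89). DDB2, which recognises UV photoproducts, had 37 and 12 reads, a ratio of 2.66 (1.36 to 5.61). TRIAP1, a p53-induced inhibitor of apoptosis, had 16 reads at 0.5 h and 2 at 0 h, a ratio of 6.91 (1.62 to 61.9). BAX and DDB2 belong to the apoptosis and repair arms of the p53 programme.

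The p53 targets called lower included the gene for its own ubiquitin ligase. MDM2 had 16 reads at 0.5 h and 57 at 0 h, a ratio of 0.242 (0.130 to 0.428). FAS, the death receptor, had 4 and 21 reads, a ratio of 0.164 (0.041 to 0.487), and the cyclin gene CCNB1, which p53 represses, had 35 and 61 reads, a ratio of 0.495 (0.317 to 0.763). The loss of MDM2 was at its distal sites, with 1 read at 0.5 h and 21 at 0 h at chr12:69239214 and 5 and 18 at chr12:69237970, while the more proximal site chr12:69234268 had 6 and 2. CDKN1A, the gene for p21, had 66 reads at 0.5 h and 53 at 0 h, a ratio of 1.08 (0.738 to 1.57), and was not called. It had 227 reads at 2 h.

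In nucleotide excision repair, which removes UV photoproducts, 24 genes were tested, 2 were called higher and 0 lower (8.33% and 0%, beside 4.39% and 7.8% of all genes), with a median log2 ratio of 0.22. DDB2, given above, was among the called genes. ERCC5, the nuclease XPG, had 89 and 41 reads, a ratio of 1.87 (1.28 to 2.78), short of 2-fold. XPC itself had 8 reads in both libraries. In the list of damage signalling and other repair, 26 genes were tested. Of these, 1 was called higher and 3 lower (3.85% and 11.5%, beside 4.39% and 7.8% of all genes). HUS1, of the 9-1-1 checkpoint clamp, was called higher with 10 reads at 0.5 h and 0 at 0 h, and PARP1, FANCM and the glycosylase gene MPG were called lower, with 6 and 23 reads for PARP1.

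Among genes of RNA synthesis and processing, the subunits of RNA polymerase II were not called in any of 7 tested, beside 4.39% higher and 7.8% lower of all genes. Of 16 elongation factors tested, 12 had a ratio below 1, beside 54.8% of all genes, with a median log2 ratio of -0.44. Of these 16, 2 were called higher and 1 lower (12.5% and 6.25%, beside 4.39% and 7.8% of all genes). LARP7, which holds the kinase P-TEFb inactive in the 7SK particle, was called higher, with 40 reads at 0.5 h and 7 at 0 h, a ratio of 4.93 (2.19 to 13.1). SUPT4H1, a subunit of the elongation factor DSIF, had 95 and 41 reads, a ratio of 2.00 (1.37 to 2.96). CDC73 of the PAF1 complex was called lower, with 1 read at 0.5 h and 13 at 0 h.

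The hnRNP genes, which encode abundant nuclear RNA-binding proteins, lay mostly below 1. Of 20 tested, 15 had a ratio below 1, beside 54.8% of all genes. Of these 20, 3 were called lower and 0 higher (15% and 0%, beside 7.8% and 4.39% of all genes), with a median log2 ratio of -0.50. HNRNPF had 15 reads at 0.5 h and 37 at 0 h, HNRNPC had 9 and 24, and HNRNPA0 had 3 and 18. The SR splicing factors were listed together with the CLK and SRPK kinases. Of 11 tested in that list, 2 were called lower and 0 higher (18.2% and 0%, beside 7.8% and 4.39% of all genes). Their median log2 ratio was -0.14. SRSF7 was called lower with 74 reads at 0.5 h and 150 at 0 h, a ratio of 0.426 (0.318 to 0.566), and SRSF5 with 2 and 16.

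Of 25 snRNP genes tested, 1 was called higher (4%) and 2 lower (8%), near the 4.39% and 7.8% of all genes. SNRPB, which encodes a core Sm protein, was called higher with 82 reads at 0.5 h and 35 at 0 h, and SNRPA, which encodes a protein of U1 snRNP, was called lower with 23 and 61, a ratio of 0.326 (0.192 to 0.534). PRPF4, of the U4/U6 particle, was also called lower with 6 and 24 reads. Of 13 cleavage and polyadenylation factors tested, 8 had a ratio above 1. Of these 13, 1 was called lower and 0 higher (7.69% and 0%, beside 7.8% and 4.39% of all genes). The called gene was CPSF6, a subunit of cleavage factor I, with 27 reads at 0.5 h and 47 at 0 h.

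**Figure D3:**
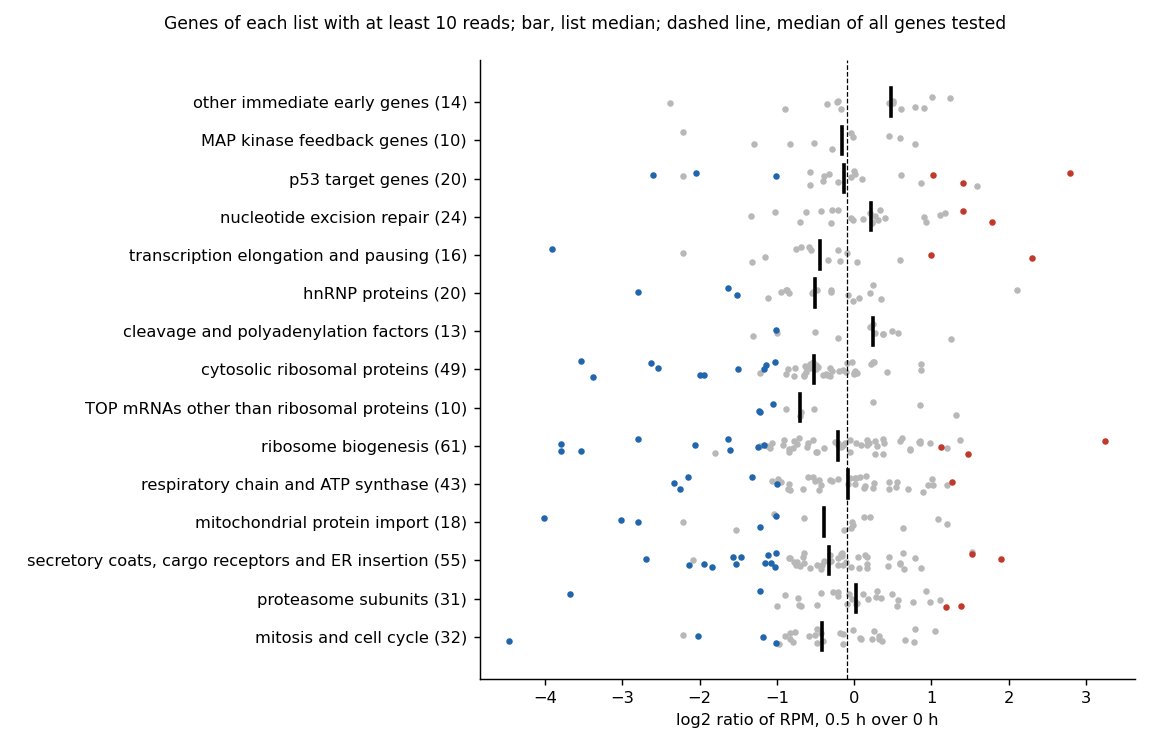
Log2 ratio of RPM (0.5 h over 0 h, x axis) of the genes with at least 10 reads in 15 gene lists, with the number tested in brackets. Red and blue points were called higher and lower, black bars are list medians, and the dashed line is the median of all genes tested, -0.10. The medians of ribosomal proteins and of the other TOP mRNAs lie at -0.53 and -0.70.

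The cytosolic ribosomal proteins, which make up the protein part of the ribosome and whose mRNAs are among the most abundant of growing cells, lay mostly below 1. Of 49 tested, 41 had a ratio below 1, 10 were called lower and 0 higher, beside 7.8% called lower among all genes. The list held 34555 RPM at 0.5 h and 50432 RPM at 0 h, and its median log2 ratio was -0.53, or -0.43 when the median of all genes was set to 0. By adjusted p alone (Fisher's exact test), whatever the fold, 25 of 49 were lower and 1, RPS29, was higher, beside 12.3% of all genes lower and 7.84% higher. Since more reads give a smaller p, the same count among genes of like abundance is the better base: 40.6% of all genes with 1000 reads or more were lower by this rule, against 9 of 10 ribosomal protein genes.

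In the abundant ribosomal protein genes the ratios were moderate. RPLP1 had 2349 reads at 0.5 h and 3672 at 0 h, a ratio of 0.552 (0.524 to 0.582). RPL18 had 3560 and 4425 reads, a ratio of 0.695 (0.664 to 0.726). RPS2 reached 2-fold, with 348 reads at 0.5 h and 612 at 0 h, a ratio of 0.491 (0.429 to 0.561).

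The ratios farthest from 1 came from members with fewer reads. RPL5, of the 5S particle that also binds MDM2, had 14 reads at 0.5 h and 70 at 0 h, a ratio of 0.173 (0.0898 to 0.309). RPL34 had 6 and 32, RPL3 had 7 and 24, RPSA had 20 and 49, RPL32 had 35 and 68, and RPS14 had 53 and 101. RPL13A had 1 read at 0.5 h and 10 at 0 h, RPL36A had 1 and 9, and RPL7 had 0 and 10. RPS29 moved the other way with 238 reads at 0.5 h and 153 at 0 h, and 229 and 153 of these were at an intronic site, chr14:50050295. Intronic sites also held reads of members with a ratio below 1. Such a site had 309 reads at 0.5 h and 484 at 0 h in RPL31, 674 and 763 in RPS24, and 419 and 443 in RPS3. Ribosomal protein genes have many near-identical processed pseudogenes, and how reads with several matches were placed is not given in the sources used here, so the values of single members are less certain than those of the list.

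**Figure D4:**
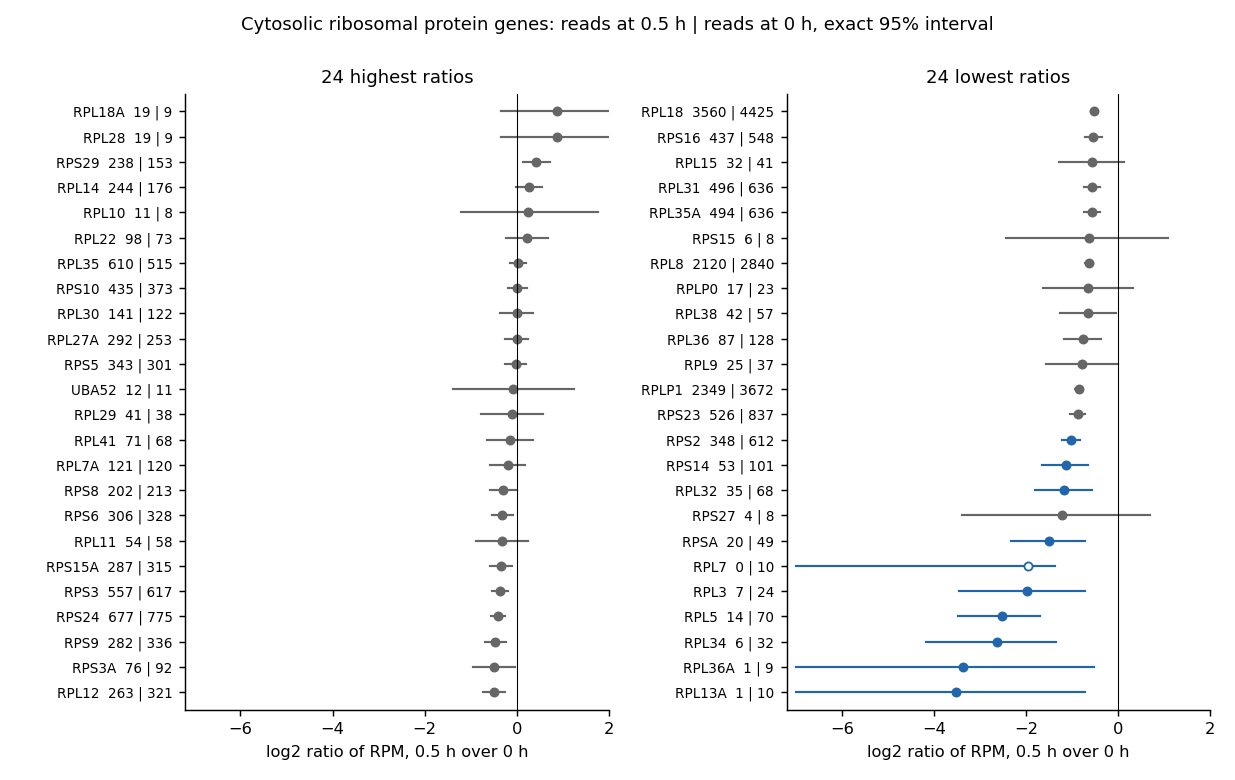
Log2 ratio of RPM (0.5 h over 0 h, x axis) with its exact 95% interval for all but 1 of the 49 ribosomal protein genes tested, each with its reads at 0.5 h and then at 0 h. The 10 genes called lower are blue, RPL7 (open circle) had 0 reads at 0.5 h, and intervals are cut off at the axis ends. The ratio was below 1 in 41 of the 49 genes.

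The mRNAs of ribosomal proteins begin with a terminal oligopyrimidine (TOP) tract, through which mTOR and LARP1 control them, and the start regions of the called genes are shown for this reason. Each line runs from 20 bases before to 15 bases from an annotated start in RefSeq (GRCh38.p14), 5ʹ to 3ʹ on the strand of the gene. The longest unbroken run of pyrimidines (C or T) is in capitals. Where a gene has several listed starts, the one with the longest run is shown, so the lines were picked by the trait they display. Of the 10 genes called lower, 7 are shown, without RPL5, RPL7 and RPS2.
RPL13A: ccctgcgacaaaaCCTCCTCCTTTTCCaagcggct
RPL3: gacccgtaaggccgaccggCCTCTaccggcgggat
RPL32: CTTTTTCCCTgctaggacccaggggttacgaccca
RPL34: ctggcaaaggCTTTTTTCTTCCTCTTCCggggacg
RPL36A: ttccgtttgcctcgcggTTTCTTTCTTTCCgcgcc
RPS14: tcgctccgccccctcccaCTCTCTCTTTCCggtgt
RPSA: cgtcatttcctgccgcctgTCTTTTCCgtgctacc

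Their places in GRCh38.p14 are chr19:49487588-49487622 for RPL13A, chr22:39319609-39319643 (minus strand) for RPL3, chr3:12841568-12841602 (minus strand) for RPL32, chr4:108620556-108620590 for RPL34, chrX:101390991-101391025 for RPL36A, chr5:150449725-150449759 (minus strand) for RPS14 and chr3:39406700-39406734 for RPSA. A run of at least 8 pyrimidines, searched on the strand of the gene only and at any listed start of a gene, was found in 32 of 38 ribosomal protein genes tested that matched (84.2%), in 20.7% of all 4259 matched genes tested and in 19.2% of the 27305 genes of the promoter table. Among ribosomal protein genes called lower, 6 of 7 that matched had such a run (85.7%), a share near that of all ribosomal protein genes tested. In RPL13A, RPL34, RPL36A, RPS14 and RPSA the run spans the start shown, whereas in RPL32 it lies at the upstream edge of the window.

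Other TOP mRNAs, of proteins that act in translation or growth, had a similar median. Of 10 tested, 7 had a ratio below 1, 3 were called lower and 0 higher (30% and 0%, beside 7.8% and 4.39% of all genes), with a median log2 ratio of -0.70. TPT1, the translationally controlled tumour protein, had 189 reads at 0.5 h and 382 at 0 h, a ratio of 0.427 (0.357 to 0.510). GNB2L1, which encodes the ribosome-bound scaffold RACK1, had 89 and 159 reads, and EIF3E, a subunit of an initiation factor, had 37 and 74. EEF2, the translocase of elongation, had 848 reads at 0.5 h and 1348 at 0 h, a ratio of 0.543 (0.498 to 0.592), short of 2-fold. In EIF3E the fall was at the 3ʹ-most-exon site chr8:109213972, with 16 reads at 0.5 h and 62 at 0 h, while its intronic site chr8:109245621 had 21 and 8. NAP1L1, a histone chaperone whose mRNA is also of the TOP class, held 6297 reads at 0.5 h and 8788 at 0 h, a ratio of 0.619 (0.599 to 0.639). Of these, 6165 and 8667 reads lay at 1 intronic site, chr12:76443346, so the ratio of NAP1L1 is mainly that of this site.

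Of 8 genes tested that are used as references in expression assays, 7 had a ratio below 1, with a median log2 ratio of -0.74. In this list 2 were called lower, GAPDH among them, and 0 higher (25% and 0%, beside 7.8% and 4.39% of all genes). GAPDH, of glycolysis, had 215 reads at 0.5 h and 408 at 0 h, a ratio of 0.455 (0.384 to 0.538). PPIA had 113 reads at 0.5 h and 185 at 0 h, a ratio of 0.527 (0.414 to 0.670). GUSB, with 81 and 64 reads and a ratio of 1.09 (0.778 to 1.54), was not called.

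Ribosome biogenesis genes, which act in the nucleolus to process rRNA and assemble subunits, were called lower in 9 and higher in 3 of 61 tested (14.8% and 4.92%, beside 7.8% and 4.39% of all genes), with a median log2 ratio of -0.21. Beside GNL2, the helicase gene DDX21 had 74 reads at 0.5 h and 151 at 0 h, a ratio of 0.423 (0.316 to 0.562), and LLPH had 35 and 92, a ratio of 0.328 (0.216 to 0.490). NOL8 had 32 reads at 0.5 h and 62 at 0 h, and UTP15, of the small subunit processome, had 12 and 32. NPM3, a nucleolar histone chaperone, moved the other way, with 2134 reads at 0.5 h and 849 at 0 h, a ratio of 2.17 (2.00 to 2.35). DDX21 was down to 7 reads at 2 h, whereas NPM3 had 3428.

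Genes of the secretory route were called lower in 12 and higher in 2 of 55 tested (21.8% and 3.64%, beside 7.8% and 4.39% of all genes), with a median log2 ratio of -0.32. The secretory list and those for ribosome biogenesis, other TOP mRNAs, reference genes and mitochondrial import were drawn up after the leading genes had been seen, so their counts describe these genes only. The fallers included coat proteins (COPA, with 18 reads at 0.5 h and 45 at 0 h, and SEC31A, with 52 and 100), cargo receptors (LMAN1, with 5 and 28, LMAN2L, with 84 and 200, and KDELR1) and the signal recognition particle (SRP14, with 103 and 179, and SRP54, with 12 and 37). TRAM1, which helps chains into the ER channel, rose together with COG2, with 173 reads at 0.5 h and 52 at 0 h, a ratio of 2.87 (2.10 to 4.0). In TRAM1 155 reads at 0.5 h and 41 at 0 h were at chr8:71487055 in its 3ʹ-most exon.

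Among mitochondrial genes, 5 of 43 tested for the respiratory chain and ATP synthase were called lower and 1 higher (11.6% and 2.33%, beside 7.8% and 4.39% of all genes). ATP5O had 8 reads at 0.5 h and 33 at 0 h, COX7A2 had 56 and 97, and NDUFV2 was the fifth with NDUFA6 and ATP5J. UQCRC1, a core subunit of complex III, was called higher with 89 reads at 0.5 h and 32 at 0 h, a ratio of 2.40 (1.59 to 3.72). The most abundant gene of the list, ATP5G2, had 8019 reads at 0.5 h and 10459 at 0 h, a ratio of 0.662 (0.643 to 0.682). The list median, -0.07, was close to that of all genes and turned to 0.02 with the median of all genes set to 0, so no common direction can be given. In protein import, 5 of 18 genes were called lower and 0 higher (27.8% and 0%, beside 7.8% and 4.39% of all genes): TIMM44 had 3 reads at 0.5 h and 21 at 0 h, TIMM21 3 and 18, TOMM22 1 and 14, TIMM17B 50 and 87, and TIMM10 15 and 30.

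Proteasome genes did not move together in spite of PSMA7 and PSMD9. Of 31 tested, 16 had a ratio above 1 and 15 below, with a median log2 ratio of 0.02. Of these 31, 2 were called higher and 2 lower (6.45% each, beside 4.39% higher and 7.8% lower of all genes). The fallers were PSMA1, with 15 reads at 0.5 h and 30 at 0 h, and PSMD7, with 1 and 11. The list sum of 26766 RPM at 0.5 h, against 14739 RPM at 0 h, was therefore carried by PSMA7 and PSMD9. PSMD2 had 791 reads at 0.5 h and 921 at 0 h, a ratio of 0.741 (0.673 to 0.816).

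Cell cycle genes had a median log2 ratio of -0.42 over 32 tested, of which 4 were called lower and 0 higher (12.5% and 0%, beside 7.8% and 4.39% of all genes). They were AURKA, CCNB1, CDK2, with 20 reads at 0.5 h and 39 at 0 h, and RB1, with 4 and 14. In chromatin, 27 genes were tested, and 3 were called in each direction (11.1% each, beside 4.39% higher and 7.8% lower of all genes). SETD1A, an H3K4 methyltransferase, had 56 reads at 0.5 h and 16 at 0 h, SMARCC1, of the SWI/SNF complex, had 25 and 3, and CHD3, a remodeler, had 29 and 8. The fallers HDAC1, KAT2A and KDM1A all encode enzymes that act on histone tails, with 25 reads at 0.5 h and 49 at 0 h for KDM1A. USP1, the deubiquitinase of FANCD2 and PCNA, had 15 reads at 0.5 h and 62 at 0 h, a ratio of 0.209 (0.110 to 0.372).

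In the larger families the counts lay near those of all genes. Of 87 ZNF genes tested, 3 were called higher and 7 lower (3.45% and 8.05%), and of 115 solute carriers 3 were higher and 10 lower (2.61% and 8.70%), with medians of -0.04 and -0.06. Both medians changed sign with the median of all genes set to 0. Of 43 genes for mitochondrial ribosomal proteins tested, 1 was called higher and 2 lower (2.33% and 4.65%, beside 4.39% and 7.8% of all genes). Their median log2 ratio was -0.12, beside -0.53 for the cytosolic ones. MRPS7 was the riser, with 100 reads at 0.5 h and 40 at 0 h, and MRPL27 led the fallers, with 5 and 27. Among 17 aminoacyl-tRNA synthetases, EPRS alone was called, lower (5.88%, beside 7.8% of all genes), with 24 reads at 0.5 h and 66 at 0 h.

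By type of site, pAs of 3ʹ-most exons held 93.8% of the reads at 0.5 h and 92.9% at 0 h, and with them most of the calls. Of 4517 genes tested on these sites alone, 384 were called lower (8.5%) and 194 higher (4.29%), with a median log2 ratio of -0.12. FRMD4A, a scaffold protein of epithelial junctions, led the risers, with 204 reads at 0.5 h and 41 at 0 h, a ratio of 4.30 (3.06 to 6.16), beside a ratio of 2.15 (1.73 to 2.68) over all its sites. TIMM44 led the fallers, with 0 reads at 0.5 h and 20 at 0 h. UFD1L, a cofactor of the segregase VCP, had 0 and 15 reads.

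Intronic sites did not share the excess of falls. Of 640 genes tested on intronic reads, 31 were called higher (4.84%) and 33 lower (5.16%), with a median log2 ratio of 0.15. In 299 genes both types could be tested. There the median log2 ratio was 0.27 for intronic reads and -0.15 for 3ʹ-most-exon reads, and in 183 of them the intronic ratio was the higher one. NAIF1 and TMED2 were called higher in the 3ʹ-most exon and lower in introns, 0 genes were called the opposite way round, and SCD5 was called lower in both. TMED2, a cargo receptor of ER-derived vesicles, had 2 reads at 0.5 h and 21 at 0 h at its intronic site chr12:124069834, and 341 and 139 at chr12:124082686 in the 3ʹ-most exon.

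Intronic sites with no read at 0 h gave most of the leading rises. HSPG2, the basement membrane proteoglycan perlecan, had 15 reads at 0.5 h and 0 at 0 h, all at chr1:22198345, and also 0 at 2 h. AGAP3 had 14 intronic reads at 0.5 h and 0 at 0 h, with 12 of them at chr7:150828399, and 10 and 12 reads in its 3ʹ-most exon. LTN1, the ubiquitin ligase of stalled ribosomes, had 13 reads at 0.5 h and 0 at 0 h, at chr21:30336853 and chr21:30340391. OGDH and SEPT9 had 14 reads each at 0.5 h and 0 at 0 h. BANP, a nuclear matrix protein that binds p53, had the largest number of reads among the leading intronic risers, with 98 at 0.5 h and 23 at 0 h, a ratio of 3.68 (2.32 to 6.07). At its main site, chr16:87986354, 95 reads at 0.5 h and 22 at 0 h were followed by 295 at 2 h.

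Among the intronic falls were SEPT8 and PPP2R1B, LRRFIP1, with 1 read at 0.5 h and 19 at 0 h at chr2:238674558, SYVN1, an ER ubiquitin ligase, with 1 and 18 at chr11:64896738, and POLR3C, a subunit of RNA polymerase III, with 0 and 11 at chr1:145592915. In the 3ʹ-most exon, SYVN1 had 31 reads at 0.5 h and 32 at 0 h at chr11:64894719 and 5 and 10 at chr11:64894751. POLR3C had 13 reads at 0.5 h and 11 at 0 h at chr1:145592617.

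Measured as a share of all reads, intronic sites fell, and that fall rested on few sites. They held 6.0% of the reads in the table at 0.5 h (95% Clopper-Pearson interval 5.94 to 6.07) and 6.86% at 0 h (6.79 to 6.94). A single site, chr12:76443346 in NAP1L1, had 6165 reads at 0.5 h and 8667 at 0 h, a difference of -7719 RPM. It was followed by HGF, the hepatocyte growth factor gene, with 385 and 670 reads at chr7:81372007, and RPL31, with 309 and 484 at chr2:101622881. Without the 10 most abundant intronic pAs, the share was 3.96% at 0.5 h and 3.89% at 0 h. For 3ʹ-most exons the share was 93.8% at 0.5 h and 92.9% at 0 h, and without their 10 most abundant pAs 75.3% and 77.4%, so that the direction of both shares depends on the most abundant sites.

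The intronic sites that gained most RPM were led by DBF4B. DBF4B, an activator of the replication kinase CDC7, had 535 reads at 0.5 h and 233 at 0 h at chr17:42827910, a ratio of 1.98 (1.70 to 2.32). PPP1R7, a regulator of phosphatase PP1, had 154 and 54 reads at chr2:242106589, a ratio of 2.46 (1.79 to 3.42). MAP7D3, a microtubule-binding protein, had 219 reads at 0.5 h and 103 at 0 h at chrX:135300402, a ratio of 1.84 (1.45 to 2.34). Of the 10 sites with the largest gain, BANP and PPP1R7 were past 2-fold.

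Intronic reads were also summed by the distance to the end of the gene, taken as its most distal 3ʹ-most-exon pA. Sites within 10 kb held 25835 RPM at 0.5 h and 33386 RPM at 0 h, a ratio of 0.774, and sites 10 to 50 kb upstream 15941 and 16431 RPM, a ratio of 0.970. Sites over 50 kb upstream held 5974 RPM at 0.5 h and 4972 RPM at 0 h, a ratio of 1.2. The lower sum within 10 kb rested on the NAP1L1 site: without it the class held 13550 RPM at 0.5 h and 13382 RPM at 0 h, a ratio of 1.01. Without the most abundant site of their own class, the ratios were 0.995 for 10 to 50 kb and 1.19 for over 50 kb. Without the 10 most abundant sites of each class the ratios were 0.939, 1.1 and 1.22. Among these distance classes, a direction that held in all of the sums was seen only over 50 kb upstream. Another 2217 intronic pAs lie in genes with no 3ʹ-most-exon pA listed and have no such distance. They held 12257 RPM at 0.5 h and 13805 RPM at 0 h, a ratio of 0.888. That ratio was 0.915 without their most abundant site and 0.906 without the 10 most abundant.

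**Figure D5:**
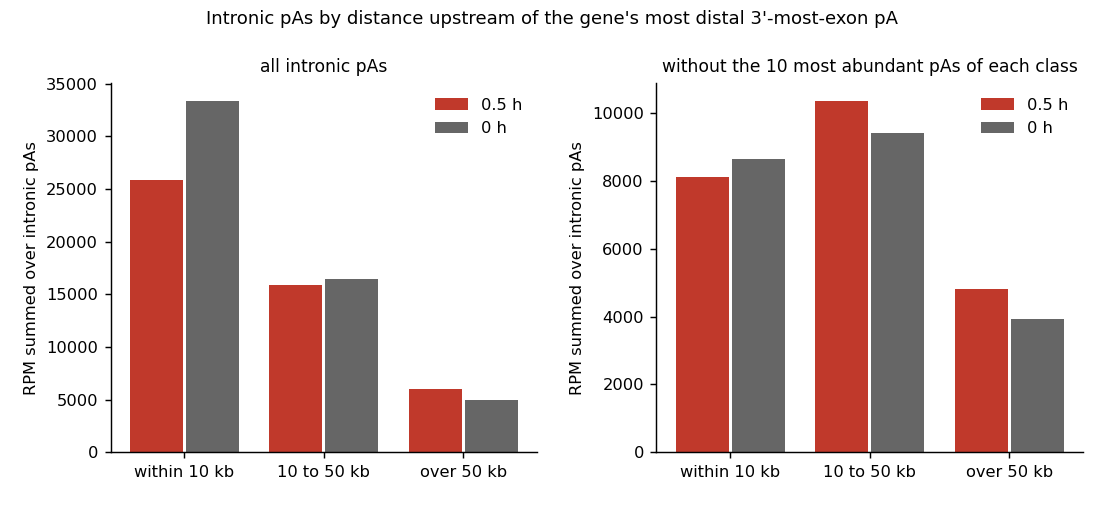
RPM summed over intronic pAs (y axis) at 0.5 h (red) and 0 h (grey), by distance upstream of the most distal 3ʹ-most-exon pA of the gene (x axis). The left panel holds all intronic pAs of genes with such a pA, and the right panel leaves out the 10 most abundant of each class. Bars are sums of 1 library each and carry no error. Sites over 50 kb upstream held more RPM at 0.5 h in both panels. The lower bar within 10 kb on the left rests on 1 site in NAP1L1, without which the ratio was 1.01.

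Sites in upstream exons were rare and showed no called change. They held 1035 reads at 0.5 h (0.206%) and 959 at 0 h (0.221%). By Fisher's exact test 0 of 19 genes tested were called in either direction. Over all sites 4.39% of genes were called higher and 7.8% lower, and 19 genes are too few to set 0 apart from these shares. At an unadjusted p under 0.05 by the exact test, 2 of the 19 genes differed.

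The ratio of site types within a gene gives the intron-APA calls of this window (APA, alternative polyadenylation), made by Fisher's exact test at p under 0.05 and a change of more than 5 percentage points. The intronic share was higher at 0.5 h in 162 (6.2%) and lower in 82 (3.14%) of 2612 testable genes. These calls use p without adjustment, and with adjusted p 10 and 7 genes were left. BANP, given above, was among the 10, with an intronic share of 100% at 0.5 h and 76.7% at 0 h (Fisher's exact test, adjusted p = 0.0047). Of genes with a higher intronic share, 142 were tested for total expression, with a median log2 ratio of -0.28, 16 called lower and 5 higher. Of genes with a lower share, 75 were tested, with a median of 0.35, 1 called lower and 4 higher. Of testable genes without an intron-APA call, 1787 were tested, with a median of -0.09, 110 called lower and 68 higher. Over all genes 7.8% were called lower and 4.39% higher. These expression values use the same reads as the share itself, so they describe how the counts move and are no separate test. Among the largest rises by unadjusted p were those of BCL2A1, F3 and SLC30A5, none of which passed with adjusted p. BCL2A1, an anti-apoptotic BCL2 relative, had 10 reads at 0.5 h and 0 at 0 h at the intronic site chr15:80262882, beside 7 and 11 at chr15:80253234. F3, which encodes tissue factor, had 8 and 0 intronic reads at chr1:95006651, beside 8 and 11 at chr1:94994872. Where both libraries held 10 or more reads, SLC30A5, a zinc transporter, had the largest called rise, with 9 reads in introns and 1 in the last exon at 0.5 h, against 2 and 11 at 0 h, a change of 74.6 percentage points.

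Between tandem sites of the 3ʹ-most exon, the proximal share was higher at 0.5 h in 221 (6.53%) and lower in 187 (5.53%) of 3383 testable genes. With adjusted p these counts were 46 and 24. In expression the genes called in these directions were alike, each with a median log2 ratio of -0.21 beside -0.12 for testable genes without a call. WTAP, a subunit of the m6A methyltransferase, changed most plainly in both respects. It had 65 reads at 0.5 h and 15 at 0 h, and its distal site chr6:160178838 had 63 reads at 0.5 h and 1 at 0 h, while the proximal site chr6:160177351 had 2 and 11. At 2 h the distal site was back to 0 reads.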

How the data were processed

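Nuclear RNA of RKO cells was sequenced by 3ʹREADS, 1 library per time point. The submitters' processing notes list Bowtie2, CASAVA and build hg19, with no version of either tool. Only reads ending in 2 or more As absent from the genome were kept by the authors, who gave every pA a gene and a type. The deposited values are RPM, scaled by the authors to library size. All of them were whole multiples of the smallest value in their column (100% of values, within 4.00e-11 reads), so reads were recovered. The tables hold 501600 of 501838 reads at 0.5 h and 433093 of 433261 at 0 h, and 58 pAs are listed under more than 1 gene.

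Reads were summed per gene and per pA type and compared with the rest of the library by two-sided Fisher's exact test with Benjamini-Hochberg adjustment, with no replicates. Reads carry no molecular identifiers, so intervals cover counting error only at a confidence level of 95%. The functions were tested on simulated data. The software was scipy 1.17.1, pandas 2.3.3, numpy 2.4.6 and matplotlib 3.10.9 under Python 3.11.15.

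Members, gene lists and tests were chosen with earlier results of these data known, and 10 lists (from ribosome biogenesis to reference genes) were added after the leading genes were seen. Named genes are the 15 called genes with the highest lower and the 15 with the lowest upper bound of the ratio, the 5 genes with most reads among those at 0 in the other library, leading or role-defining members of each list, the leading genes and intronic pAs of each type, and abundant called genes picked after their values were seen. Promoter sequences and gene names are RefSeq's (GRCh38.p14), whose coordinates were not joined to the hg19 positions. Some genes are not reported here by name, though they enter the counts and medians.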

Additional observations from a re-analysis of the deposited data

Results flagged for a closer look

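Stress-response genes with 0 reads at both 0.5 h and 0 h had reads in the 2 h library, which enters no comparison here, above the 3 reads that a count of 0 allows. They were FOS with 11 reads at 2 h, TRIB1 with 20, GADD45B with 8, MAFF with 5, IER5L with 4 and SGK1 with 4. The difference between time points was not tested for these genes.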

How the results depend on the processing

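No paired analysis was possible because each time point has 1 library. For the genes called higher and lower at 0.5 h (224 and 398), both counts stayed within 1.5 times under both other scalings, no minimum, 3ʹ-most-exon pAs alone, a fold of at least 1.5, 1 or 0.1 RPM added, thinning of the 0.5 h library and removal of pAs listed under more than 1 gene. They were 370 and 561 with unadjusted p, 164 and 254 with a minimum of 30 reads, and, in alternatives chosen after seeing the data, 612 and 810 by fold alone, 400 and 625 by adjusted p alone, and 105 and 152 among genes with at least 50 reads and 10 in each library. In 3ʹ-most exons 322 genes were higher with unadjusted p, and 245 lower with a minimum of 30 reads. In introns the minimum of 30 reads left 11 higher and 14 lower, unadjusted p gave 84 and 56, and in upstream exons unadjusted p gave 1 higher. Without the 10 most abundant pAs, the change in share was -2.12 points for 3ʹ-most exons, against 0.874 points with them, and 0.072 points for introns (Fisher's exact p = 0.0745), against -0.858. With adjusted p, intron-APA gave 10 higher and 7 lower, and 3ʹUTR-APA 46 and 24, and with at least 10 reads in each library intron-APA gave 91 and 43. For intronic pAs by distance to the gene end, also recomputed after seeing the data, the ratio within 10 kb was 1.01 without the NAP1L1 site, against 0.774, and at 10 to 50 kb 1.1 without the 10 most abundant, against 0.970. Of 160 called genes (the leading genes and the called list members), 144 kept their call with the median set to 0 and 137 with thinning. With a minimum of 30 reads 103 kept it and 57 were not tested. All 160 lay at least 2-fold from 1 by the rule of the call. That 0 of those tested changed direction was thus largely fixed in advance, and uncalled genes named above were not followed. Of 37 lists, 27 had a median below 0, 22 with the median set to 0. The relation to gene length was not run, since the annotation at hand is of another genome build. With no replicate, library and time point cannot be told apart.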
